A study of Mus musculus with 10 samples.

Results

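Neurofilament and microtubule-associated protein genes were examined in mouse cortical neuron cultures that had received an adeno-associated virus, a gene delivery vector, carrying Gata1 (AAV-Gata1) or a control virus (AAV-Control). Gata1 encodes a zinc finger transcription factor of blood cell development. The 10 genes were chosen by name (Map2, Mapt, Map1a, Map1b, Nefl, Nefm, Nefh, Ina, Dcx and Stmn2) and are 10 of 40904 gene symbols in the mRNA tables, with 1 row each. In both groups the neurons came from the cortex of embryonic day 14 ICR mice and were collected after 11 days in vitro. The labels do not give the promoter that drove Gata1, the contents of the control virus, or the share of cells that carried either virus. Each condition had 1 mRNA library, so differences have no replicate check, no error can be given and none was tested.

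Microtubules carry transport in axons and dendrites, and neurofilaments set the calibre of axons. MAP2 binds microtubules in dendrites and cell bodies, tau (Mapt) mainly in axons, and MAP1A and MAP1B along both, with MAP1B prominent in growing neurites and MAP1A in mature ones. Neurofilaments are copolymers of the light (Nefl), medium (Nefm) and heavy (Nefh) chains with alpha-internexin (Ina), which appears early in development, while the heavy chain appears late. Doublecortin (Dcx) stabilises microtubules in migrating and immature neurons, and stathmin 2 (Stmn2) binds free tubulin in growing axons.

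The values are FPKM, fragments scaled to transcript length and to the mapped fragments of the library, so levels of different genes can be set side by side. The libraries summed to 476794 FPKM (AAV-Gata1) and 476339 FPKM (AAV-Control) over all symbols, and their depth in reads is unknown. Gata1 itself was at 2.07 FPKM with AAV-Gata1 and listed at 0 in the AAV-Control library. The tissue label was checked against marker genes. All 10 neuron markers were present, with a geometric mean of 54.6 FPKM with AAV-Gata1 and 57.6 FPKM with AAV-Control. The cultures also held abundant glial RNA: the astrocyte filament gene Gfap was at 897 FPKM with AAV-Gata1 and 887 FPKM with AAV-Control. The 8 microglia markers summed to 114 FPKM with AAV-Gata1 and 92.8 FPKM with AAV-Control.

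The 10 genes spanned a wide range of levels, and their order was the same in both libraries. Stmn2 was the highest, at 242 FPKM with AAV-Gata1 and 252 FPKM with AAV-Control. In the AAV-Gata1 library 269 symbols had higher values, and in the AAV-Control library 258. Map2 followed at 236 FPKM with AAV-Gata1 and 240 FPKM with AAV-Control, and Mapt at 160 FPKM with AAV-Gata1 and 173 FPKM with AAV-Control. Below these 3 came Dcx, Map1b, Ina, Map1a, Nefl, Nefm and, last, Nefh. With 1 library per condition it cannot be said which neighbours in this order differ beyond their spread, and Stmn2 was at only 1.03 times the level of Map2 in the AAV-Gata1 library and 1.05 times in the AAV-Control library. The summed FPKM of the 10 genes was 858 in the AAV-Gata1 library and 898 in the AAV-Control library, which is 0.180% of the total of the AAV-Gata1 library and 0.188% of that of the AAV-Control library.

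**Figure D1:**
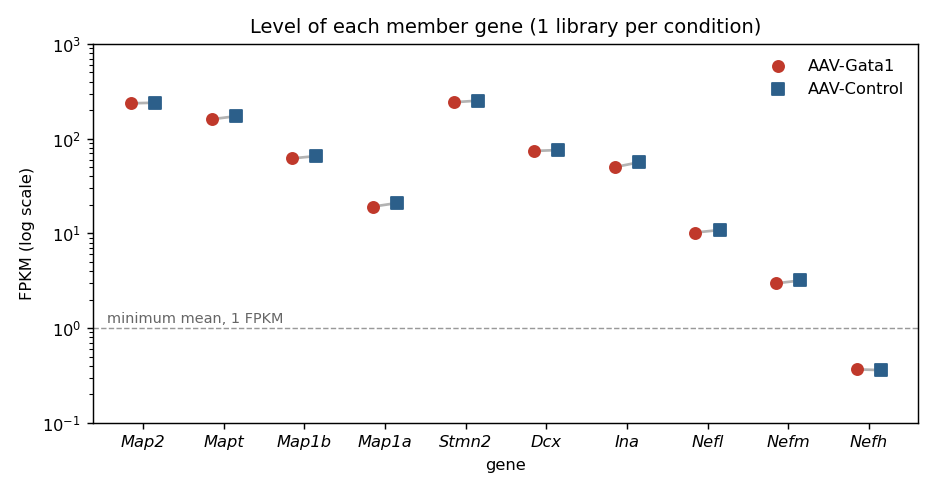
FPKM of each gene on a log axis, with 1 point per library (circle, AAV-Gata1; square, AAV-Control) and the dashed line at the minimum mean of 1 FPKM used for comparisons. Levels run between 0.360 FPKM for Nefh and 252 FPKM for Stmn2 in the AAV-Control library, and the points of a gene lie close together.

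Among the microtubule-associated proteins, Map1b was at 61.9 FPKM with AAV-Gata1 and 65.6 FPKM with AAV-Control. Map1a was lower, at 19.2 FPKM with AAV-Gata1 and 20.9 FPKM with AAV-Control. Map1b, the form prominent in growing neurites, was at 3.23 times the level of Map1a in the AAV-Gata1 library and 3.14 times in the AAV-Control library. Dcx, the gene of immature neurons, was at 74.2 FPKM with AAV-Gata1 and 75.9 FPKM with AAV-Control, a ratio to Map2 of 0.314 with AAV-Gata1 and 0.316 with AAV-Control. Map2 was at 1.47 times the level of Mapt in the AAV-Gata1 library and 1.39 times in the AAV-Control library.

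The neurofilament genes were at very unequal levels. Ina was at 50.1 FPKM with AAV-Gata1 and 56.3 FPKM with AAV-Control. Nefl was at 10.2 FPKM with AAV-Gata1 and 10.9 FPKM with AAV-Control, and Nefm at 2.97 FPKM with AAV-Gata1 and 3.18 FPKM with AAV-Control. Nefh was at only 0.367 FPKM with AAV-Gata1 and 0.360 FPKM with AAV-Control. Ina made up 78.7% of the summed FPKM of the 4 subunits in the AAV-Gata1 library and 79.6% in the AAV-Control library. Nefl made up 16.0% with AAV-Gata1 and 15.4% with AAV-Control, and Nefm 4.66% with AAV-Gata1 and 4.50% with AAV-Control. Nefh made up 0.576% with AAV-Gata1 and 0.509% with AAV-Control. The level of Nefl was 3.44 times that of Nefm in the AAV-Gata1 library and 3.41 times in the AAV-Control library.

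Overlapping genes can share reads, and whether strand was used in counting is not stated in the labels or headers. In the RefSeq annotation (GRCm38.p6) Ina overlaps Nt5c2 (15.8 FPKM with AAV-Gata1 and 16.8 FPKM with AAV-Control). Map1a overlaps Trp53bp1 (29.1 FPKM with AAV-Gata1 and 33.2 FPKM with AAV-Control) and Ppip5k1 (5.16 FPKM with AAV-Gata1 and 6.08 FPKM with AAV-Control). Nefh overlaps Ap1b1 (35.6 FPKM with AAV-Gata1 and 34.9 FPKM with AAV-Control). The value of Nefh lies far below that of the gene it overlaps. Map2, Mapt and Nefm overlap noncoding genes or pseudogenes. Of the 4 that overlap Map2 only 2 had values, listed at 0 in both libraries. Those that overlap Mapt and Nefm had no values. Map1b, Nefl, Dcx and Stmn2 overlap no other annotated gene.

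**Figure D2:**
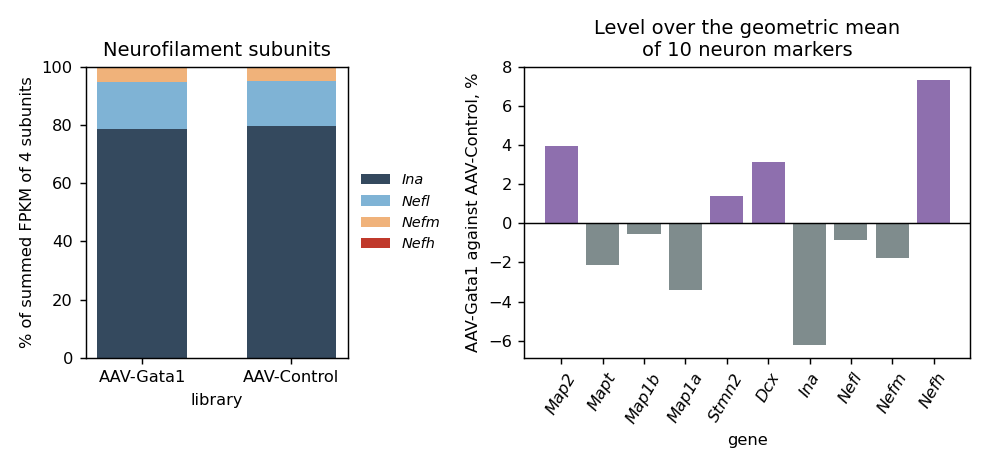
Left, share of each subunit in the summed FPKM of Ina, Nefl, Nefm and Nefh, with Ina at 78.7% in the AAV-Gata1 library and 79.6% in the AAV-Control library. Right, percent difference between AAV-Gata1 and AAV-Control in each gene's level over the geometric mean of 10 neuron markers of the same library, which runs between -6.20% for Ina and 7.34% for Nefh.

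The comparison of AAV-Gata1 with AAV-Control asks how far delivery of Gata1 goes with a different level of these genes. The measure was log2((AAV-Gata1 + 1)/(AAV-Control + 1)) of FPKM. It was computed for each symbol whose mean over both libraries reached 1 FPKM, and its pseudocount shrinks the difference of low genes. Of the 10 genes 9 passed that minimum and Nefh did not. All 9 were lower in the AAV-Gata1 library, where 54.7% of all 13740 compared genes were lower, and with no minimum 9 of the 10 were lower against 53.6% of genes. With the ratios centred on the median of all compared genes, which puts as many genes above 0 as below it, the 9 were still lower. The differences were small. Their median log2 ratio was -0.081, against -0.013 over all compared genes, and the 5th and 95th percentiles of all compared genes were -0.24 and 0.21. At least 1.1-fold lower was 1 of the 9 (11.1%), against 13.7% of all compared genes, a share near the background. None was 1.2-fold lower, against 3.98% of all compared genes, or 2-fold lower, against 0.284%. None was higher by 1.1-fold, against 10.7%.

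The gene past 1.1-fold was Ina, whose FPKM was 11.02% lower (log2 ratio -0.17). Of all compared genes 9.97% had a lower log2 ratio than Ina, as had 4.28% of the 4972 genes whose mean reached 20 FPKM. Of those 4972 genes 7.00% were at least 1.1-fold lower. Map1a was next, at 8.38% lower FPKM (log2 ratio -0.12), and then Mapt, at 7.17% lower (log2 ratio -0.11). The protein-coding genes that overlap Ina and Map1a were also lower with AAV-Gata1. The part of shared reads in the values of Ina and Map1a was not tested. Map1b, Nefl and Nefm were close together. Map1b had a log2 ratio of -0.083, with 25.4% of all compared genes lower than it, Nefl one of -0.081, with 26.0% lower, and Nefm one of -0.077, with 26.8% lower. Stmn2 had a log2 ratio of -0.056, with 33.8% of compared genes lower. Dcx and Map2 were nearest to 0 among the 9. Dcx had a log2 ratio of -0.031 (FPKM 2.14% lower), with 42.3% of compared genes lower, and Map2 one of -0.020 (FPKM 1.40% lower), with 46.8% lower. Nefh, below the minimum, had a log2 ratio of 0.0070. The dendritic Map2 and the axonal Mapt had log2 ratios 0.087 apart without a pseudocount, a distance that has no error here.

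**Figure D3:**
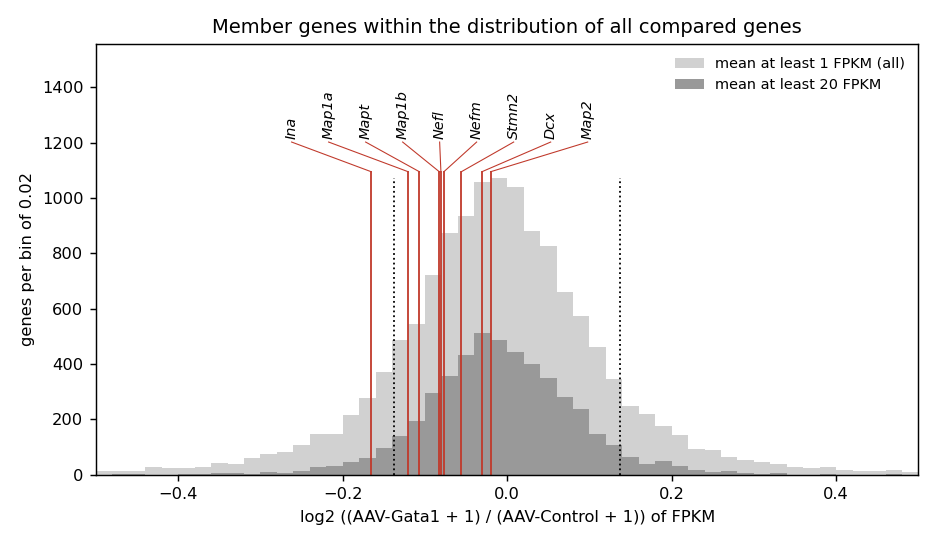
Number of genes per bin of the log2 ratio of AAV-Gata1 to AAV-Control, for all compared genes (light) and those that reach a mean of 20 FPKM (dark); genes outside the axis range are not drawn. Red lines mark the 9 compared genes, all left of 0, and dotted lines mark 1.1-fold, which Ina alone of the 9 passes.

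Neuron markers differed the same way. Of the 10, which do not include any of the 10 cytoskeletal genes, 9 were lower in the AAV-Gata1 library, against 54.7% of all compared genes, with a median log2 ratio of -0.071. At least 1.1-fold lower were 3 of the 10, against 13.7% of all compared genes. The summed level of the 10 markers was 839 FPKM with AAV-Gata1 and 868 FPKM with AAV-Control. The examples furthest apart were Eno2, a neuronal glycolytic enzyme gene (36.5 FPKM with AAV-Gata1 and 40.7 FPKM with AAV-Control), and the neuronal RNA-binding protein gene Elavl3 (45.5 FPKM with AAV-Gata1 and 50.3 FPKM with AAV-Control). The vesicle calcium sensor gene Syt1 (37.6 FPKM with AAV-Gata1 and 41.6 FPKM with AAV-Control) and the splicing factor gene Rbfox3 (17.5 FPKM with AAV-Gata1 and 19.0 FPKM with AAV-Control) followed. In bulk RNA, fewer cells of a type and less RNA per cell cannot be told apart. The part of the neuron share in these differences was not tested.

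Set against the geometric mean of the neuron markers of the same library, the 10 genes went both ways. Map2 was 4.33 times that mean in the AAV-Gata1 library and 4.16 times in the AAV-Control library, and Dcx 1.36 times with AAV-Gata1 and 1.32 times with AAV-Control. Stmn2 was 4.44 times that mean in the AAV-Gata1 library and 4.38 times in the AAV-Control library. Ina was 0.917 times it in the AAV-Gata1 library and 0.978 times in the AAV-Control library, the ratio that was lower by most among the 10, at -6.20%. Mapt differed by -2.15%, Map1a by -3.43%, Nefm by -1.79%, Nefl by -0.842% and Map1b by -0.538%. Nefh differed by 7.34% at a level below 1 FPKM. On this measure 6 genes were lower and the other 4 higher. The share of all compared genes that were lower on this measure was not counted, so this split has no background. The marker mean itself was lower with AAV-Gata1, with a log2 ratio of -0.076 without a pseudocount. With the pseudocount and without division by the marker mean, 26.8% of all compared genes had a log2 ratio below the -0.077 of Nefm. That share is of a different measure and is not a background for the split.

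Markers of other cell types went different ways, where 45.3% of all compared genes were higher and 54.7% lower. The 6 microglia markers that passed the minimum were all higher in the AAV-Gata1 library (median log2 ratio 0.25), with Trem2 at 53.4 FPKM with AAV-Gata1 and 43.7 FPKM with AAV-Control. The defining genes P2ry12 and Tmem119 were below 1 FPKM in both libraries and went opposite ways. P2ry12 was at 0.117 FPKM with AAV-Gata1 and 0.178 FPKM with AAV-Control. Tmem119 was at 0.154 FPKM with AAV-Gata1 and 0.0738 FPKM with AAV-Control. With no minimum the median log2 ratio of the 8 microglia markers was 0.16. Astrocyte markers were lower in 3 and higher in 3 of 6 cases (median -0.0095; summed level 1939 FPKM with AAV-Gata1 and 1931 FPKM with AAV-Control). Of 8 oligodendrocyte lineage markers 6 were lower (median -0.087; summed level 225 FPKM with AAV-Gata1 and 239 FPKM with AAV-Control). Of 6 progenitor markers 3 were higher (median 0.054; summed level 257 FPKM with AAV-Gata1 and 238 FPKM with AAV-Control). Of the 5 pericyte and fibroblast markers 2 passed the minimum and both were lower (summed level of all 5, 75.7 FPKM with AAV-Gata1 and 91.2 FPKM with AAV-Control), while the 4 endothelial markers summed to 2.69 FPKM with AAV-Gata1 and 2.79 FPKM with AAV-Control, with Cdh5 listed at 0 in the AAV-Gata1 library and Cldn5 in the AAV-Control library. The part of these cell types in the values of the 10 genes was not tested.

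Related families were read beside the 10 genes. Stathmins depolymerise microtubules by binding tubulin, and Stmn1, which dividing cells also express, was at 797 FPKM with AAV-Gata1 and 788 FPKM with AAV-Control, which is 3.29 times the level of Stmn2 with AAV-Gata1 and 3.12 times with AAV-Control. Its neuronal relatives Stmn3 (219 FPKM with AAV-Gata1 and 236 FPKM with AAV-Control, log2 ratio -0.11) and Stmn4 (97.1 FPKM with AAV-Gata1 and 103 FPKM with AAV-Control, -0.091) had log2 ratios further from 0 than that of Stmn2, with no test of the difference. In the doublecortin family, Dclk1 was at 80.9 FPKM with AAV-Gata1 and 81.6 FPKM with AAV-Control, close to the level of Dcx. Dclk2 was at 38.3 FPKM with AAV-Gata1 and 40.9 FPKM with AAV-Control, while Dclk3 (0.963 FPKM with AAV-Gata1 and 1.23 FPKM with AAV-Control) and Dcdc2a (1.25 FPKM with AAV-Gata1 and 1.23 FPKM with AAV-Control) were low.

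Of 22 other structural microtubule-associated proteins 20 were found and compared, and 14 were lower, against 54.7% of all compared genes, and 6 higher, with a median log2 ratio of -0.022, nearer to that of all compared genes than the median of the 10 cytoskeletal genes. At least 1.1-fold lower were 2 of the 20, against 13.7% of all compared genes. They were Mtcl1, which crosslinks microtubules, at 4.68 FPKM with AAV-Gata1 and 6.38 FPKM with AAV-Control (log2 ratio -0.38), and the minus-end binding Camsap1, at 21.7 FPKM with AAV-Gata1 and 24.6 FPKM with AAV-Control (-0.18). Tppp3 was at 16.6 FPKM with AAV-Gata1 and 18.1 FPKM with AAV-Control, and Map7, which recruits kinesin, at 2.88 FPKM with AAV-Gata1 and 2.59 FPKM with AAV-Control.

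Intermediate filament genes outside the neurofilament group went both ways. Of 8 such genes 3 were lower and 5 higher in the AAV-Gata1 library, where 45.3% of all compared genes were higher (median log2 ratio 0.018). Vim, the vimentin gene of glia and progenitors, was at 1357 FPKM with AAV-Gata1 and 1280 FPKM with AAV-Control (log2 ratio 0.084), which is 27.1 times the level of Ina with AAV-Gata1 and 22.7 times with AAV-Control. Prph, the peripherin gene of peripheral neurons, was at 1.51 FPKM with AAV-Gata1 and 1.22 FPKM with AAV-Control, the nuclear lamina gene Lmnb1 at 38.8 FPKM with AAV-Gata1 and 40.3 FPKM with AAV-Control, and Lmna at 26.0 FPKM with AAV-Gata1 and 26.9 FPKM with AAV-Control. Of the other peripheral neuron markers Isl1 was listed at 0 in both libraries and Avil stood below 1 FPKM in both.

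**Figure D4:**
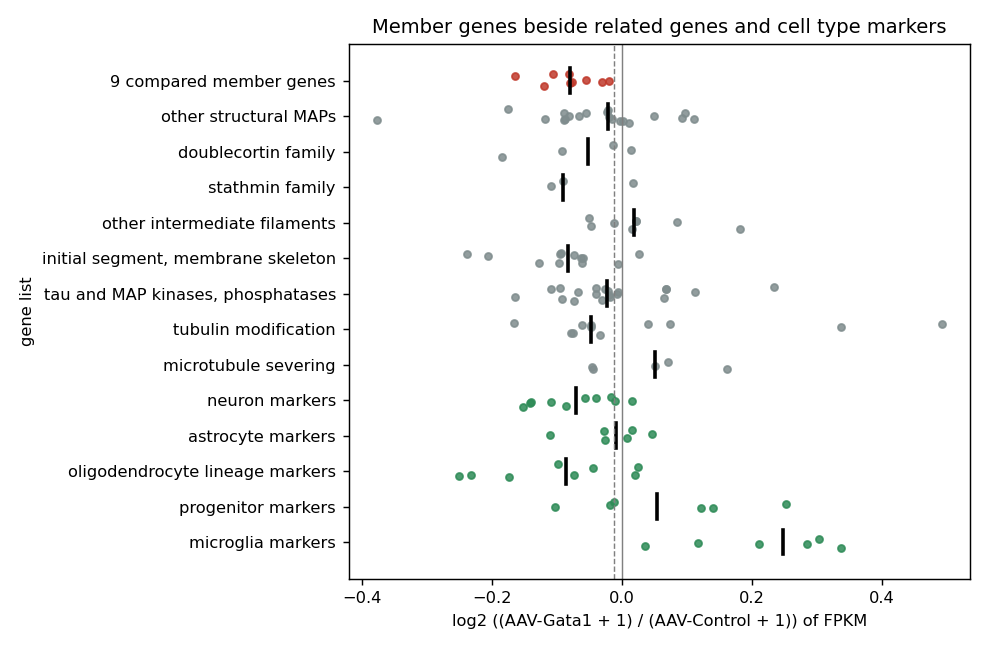
Log2 ratio of AAV-Gata1 to AAV-Control for the compared genes of each list drawn, with 1 point per gene, black bars at list medians, a solid line at 0 and a dashed line at the median of all compared genes. The pericyte and fibroblast, endothelial and peripheral neuron markers are not drawn. The 9 compared cytoskeletal genes (red, median -0.081) and the neuron markers (green, median -0.071) lie mostly left of 0, and the microglia markers (median 0.25) right of it.

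Promoter windows in the RefSeq table (build GRCm38.p6), each with 250 bases before and 50 after a gene start, were found for Ina, Map2, Map1a, Map1b and Dcx, the last with 2 starts. They were searched on both strands for the short sequence that GATA factors bind, in the form AGATAA, in the form ending with G, which is AGATAG, and in the forms beginning with T, which are TGATAA on the one hand and TGATAG on the other. Of 32851 windows of this length 29.8% held at least 1 of these. The window of Map1b held 1, an AGATAA at base 286 of 300, after the start, and 11.2% of all windows held AGATAA. None of the 4 motifs was in the windows of Ina, Map2, Map1a or Dcx, which says only that these letters are not there. The site in Map1b is shown first, with the motif in capitals (reverse strand, chr13:99516553-99516582), 5′ to 3′.
Map1b site: agacagcaccttcggAGATAAtcctttctc

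Windows of 3 genes that differ in base composition are shown by the 250 bases before the start, 5′ to 3′, with each CG pair in capitals. Ina, the gene furthest from equal levels, had 71.7% G and C and 32 CG pairs in its 300-base window, with more G and C than 92.6% of windows (chr19:47014431-47014680, forward strand). The window of Map1b had 65.7% and 23 CG pairs (chr13:99516603-99516852, reverse strand). The window of the upstream start of Dcx had 43% and 3 CG pairs, with more G and C than 16.5% of windows (chrX:143933220-143933469, reverse strand).
Ina: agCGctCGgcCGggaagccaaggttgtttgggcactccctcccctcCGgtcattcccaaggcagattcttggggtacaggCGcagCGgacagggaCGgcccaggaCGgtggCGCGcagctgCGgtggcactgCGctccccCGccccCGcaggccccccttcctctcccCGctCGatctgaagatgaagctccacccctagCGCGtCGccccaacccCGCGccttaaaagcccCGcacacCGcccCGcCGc
Map1b: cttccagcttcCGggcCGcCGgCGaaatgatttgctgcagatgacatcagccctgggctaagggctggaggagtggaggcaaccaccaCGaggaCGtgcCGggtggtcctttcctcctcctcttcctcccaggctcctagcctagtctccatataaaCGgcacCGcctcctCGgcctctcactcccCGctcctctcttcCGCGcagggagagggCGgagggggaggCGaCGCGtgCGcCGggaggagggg
Dcx: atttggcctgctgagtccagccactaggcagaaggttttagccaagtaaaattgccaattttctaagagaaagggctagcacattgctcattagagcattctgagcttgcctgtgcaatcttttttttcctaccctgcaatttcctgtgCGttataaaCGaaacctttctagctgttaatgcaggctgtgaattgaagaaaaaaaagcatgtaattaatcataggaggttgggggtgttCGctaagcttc

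The windows of Map2 (77.7% G and C, 37 CG pairs) and Map1a (65.7%, 27 CG pairs) were of the GC-rich kind too. Of the 5 genes with windows Map2 had the most G and C and Dcx the least. Whether base composition goes with the log2 ratios was not tested. A TATAAA, searched for after the letters had been seen and present in 13.6% of all windows, lay at base 152 of the Map1b window and base 153 of this Dcx window. These matches are descriptions of the sequence.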

How the data were processed

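The deposited mRNA values are FPKM, per the file headers, 1 table for each condition, made from stranded paired-end poly(A) libraries (TruSeq), per the labels' protocols. The submitters' processing notes name, among others, Cuffdiff 2.1.1, Cufflinks 2.1.1 and TopHat2 2.1.1 and the builds mm9 and mm10, without roles. Further scaling and strand-specific counting are not given in the sources used here. The other 8 of 10 samples were not used here. Of 40993 rows 6 without a symbol were left out, and each symbol was read from its row of highest mean. Ratios used a pseudocount of 1 FPKM and a minimum mean of 1 FPKM; limits of 1.1-fold, 1.2-fold and 2-fold stood in place of a test. Of each related list the 4 genes furthest from 0 were named, or all in lists of up to 6; some of these genes are not reported here. The 10 genes and all lists were chosen with earlier results of these data known. Promoter windows of RefSeq (GRCm38.p6) were matched by symbol. The arithmetic of the ratios and counts was checked on simulated data without noise, which says nothing about the spread between libraries. Python 3.11.15, pandas 2.3.3, numpy 2.4.6 and matplotlib 3.10.9 were used.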

Additional observations from a re-analysis of the deposited data

How the results depend on the processing

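No paired analysis was possible because each condition had 1 library. Alternatives were a pseudocount of 0.1 or none, no minimum or a minimum mean of 5 FPKM, summed rows, centring on the median, and equal totals. A value was taken as moved beyond 0.108, the scaled median absolute deviation of the log2 ratio of all compared genes, or, for counts, by over 1.5 times. The median log2 ratio of the compared cytoskeletal genes stayed between -0.088 and -0.068, and that of Ina between -0.17 and -0.15. The share of all compared genes at least 1.1-fold lower was 7.00%, and higher 5.51%, with a minimum mean of 20 FPKM. The share at least 1.2-fold lower was 6.10% without a pseudocount, 2.31% at a minimum of 5 FPKM and 1.15% at 20 FPKM. The median of the pericyte and fibroblast markers, -0.17 over 2 genes, was 0.044 with no minimum, where genes below 1 FPKM enter. That of the endothelial markers, -0.11 over 1 gene, was 0.029 with no minimum. That of the peripheral neuron markers, 0.18 over 1 gene, was 0.31 without a pseudocount and 0.047 with no minimum. The ratio of Nefl to Nefm was 2.83 in both libraries with a pseudocount of 1. Depth is unknown, so no counting error can be given, least of all for Nefh.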

Other observations

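Genes of the axon initial segment and the spectrin membrane skeleton, which anchors the axonal cytoskeleton to the membrane, were lower in the AAV-Gata1 library in 11 of 12 cases, against 54.7% of all compared genes (median log2 ratio -0.084, against -0.013 over all compared genes). At least 1.1-fold lower were 2 of the 12, a share near the 13.7% of all compared genes. Those 2 were Trim46, which bundles microtubules at the initial segment (18.0 FPKM with AAV-Gata1 and 21.4 FPKM with AAV-Control, log2 ratio -0.24), and the adhesion gene Nfasc (17.4 FPKM with AAV-Gata1 and 20.2 FPKM with AAV-Control, -0.21). The linker gene Dst was at 29.9 FPKM with AAV-Gata1 and 32.0 FPKM with AAV-Control. Neuron markers were lower too, in 9 of 10 cases, and their part in these values was not tested.

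Genes of enzymes that act on tau, other microtubule-associated proteins and neurofilaments were read together with genes of their regulatory subunits. Of these 20 genes 15 were lower and 5 higher, where 54.7% of all compared genes were lower (median log2 ratio -0.024). At least 1.1-fold lower was 1 of the 20 and at least 1.1-fold higher 1, against 13.7% and 10.7% of all compared genes. The kinase genes furthest apart were Mapk10, which encodes the neuronal kinase JNK3 (41.5 FPKM with AAV-Gata1 and 35.1 FPKM with AAV-Control, log2 ratio 0.23), Ttbk1 (5.27 FPKM with AAV-Gata1 and 6.02 FPKM with AAV-Control, -0.16), Mark2 (19.1 FPKM with AAV-Gata1 and 17.6 FPKM with AAV-Control, 0.11) and Mark4 (16.5 FPKM with AAV-Gata1 and 17.9 FPKM with AAV-Control, -0.11). Of 11 tubulin-modifying enzymes found, 7 were lower and 4 higher, a share near the 54.7% of all compared genes that were lower (median -0.047). The polyglutamylase gene Ttll11 was at 3.05 FPKM with AAV-Gata1 and 1.88 FPKM with AAV-Control (0.49), and the deglutamylase gene Agbl4 at 1.62 FPKM with AAV-Gata1 and 1.07 FPKM with AAV-Control (0.34), both at low levels. Ttll1 was at 18.3 FPKM with AAV-Gata1 and 20.7 FPKM with AAV-Control (-0.17) and Vash1 at 11.4 FPKM with AAV-Gata1 and 12.1 FPKM with AAV-Control (-0.079). Among severing genes, Spast was at 31.5 FPKM with AAV-Gata1 and 30.0 FPKM with AAV-Control, Fignl1 at 4.96 FPKM with AAV-Gata1 and 4.33 FPKM with AAV-Control, Katnal1 at 19.8 FPKM with AAV-Gata1 and 20.5 FPKM with AAV-Control, and Katna1 at 13.7 FPKM with AAV-Gata1 and 14.2 FPKM with AAV-Control.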
